A study of Mus musculus with 2 samples.

Results

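The mitochondrial ribosome makes the few proteins encoded by mitochondrial DNA, all of them subunits of the respiratory chain and of ATP synthase. Its RNA comes from the mitochondrial genome, while its proteins are encoded in the nucleus, made in the cytosol and imported. Bacterial ancestry shows in its core proteins, and many further proteins are found in mitochondria alone. The genes described here are the mouse genes whose symbol is Mrpl or Mrps followed by a number and at most 1 letter and that have at least 1 protein-coding transcript. There were 78 such genes among 55536 mouse genes in the tables. Of these, 51 encode proteins of the large subunit and 26 proteins of the small subunit. Mrps36 was counted in neither, since its product is a component of the oxoglutarate dehydrogenase complex. Symbols and subunits do not match throughout, as the products of Mrps18a and Mrps30 sit in the large subunit.

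The tissue was hippocampus from female mice of the strain 5xFAD/CAST at 8 to 10 months of age. The labels also describe the samples as 5xFAD X Cast, which reads as a cross. 5xFAD mice carry mutated human transgenes for amyloid precursor protein and presenilin under the neuronal Thy1 promoter, and CAST is a wild-derived inbred strain. Total RNA, 300 ng per library with ERCC spike-in RNAs, was sequenced from 2 biological replicates that share all of these features and a donor record, so that the spread between them may not be one between animals. The 2 libraries form 1 group without a control, so no test between conditions was possible. The data give levels, and the differences between the libraries. The libraries held 27816845 and 32316737 expected counts, the reads assigned to each gene by a model. Markers of neurons, of hippocampal CA1, CA3 and dentate gyrus, and of glia were detected in both libraries. Markers of choroid plexus and of ependyma, the tissues lining the ventricles, differed most between the libraries.

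Some of the genes carry short letter patterns in their promoters that are known as binding motifs of transcription factors. NRF1 is an activator of many nuclear genes for mitochondrial proteins, the ETS family includes GABP (also called NRF2), another such activator, and YY1 is a factor with many targets of this kind. Promoters from 250 bases before to 50 after the annotated start were taken from RefSeq (GRCm38.p6, the assembly called mm10), where 69 of the 78 genes had 75 entries. The letters for NRF1 (GCGC, then any base, then TGCGC) stood in 13 of the 75 promoters (17.3%), against 9.32% of 13370 promoters of detected nuclear protein-coding genes and 4.60% of all 32851 promoters. CCGGAAGT for ETS factors stood in 12 (16%), against 7.34% and 3.89%. AAGATGGCG for YY1 stood in 8 (10.7%), against 2.77% and 1.40%. Both strands were searched for each motif. At least 1 of the 3 was found in 31 promoters (41.3%), against 18.1% of those of detected genes and 9.24% of all. CCAAT was found in 40.0%, against 37.1% of promoters of detected genes and 37.4% of all. TATAAA was found in 6.67%, close to the 6.88% of detected genes and below the 13.6% of all promoters. GGGCGG was found in 52.0%, below the 61.8% of detected genes and above the 35.7% of all. These shares describe letters and not binding, which was not measured.

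The following stretches upstream of the start show where the letters stand in 5 of these genes, with the NRF1 letters (first 3) or the ETS letters (last 2) in capitals. Mrpl17 was among the genes with the highest levels and Mrpl45 and Mrps27 among the lowest. Mrpl12 encodes a protein of the ribosomal stalk, where translation factors dock, and Mrpl43 lies beside the gene of the mitochondrial DNA helicase Twinkle.
Mrpl17, chr7:105811100-105811166, minus strand: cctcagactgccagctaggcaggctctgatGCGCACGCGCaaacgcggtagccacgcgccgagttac
Mrpl12, chr11:120484526-120484595, plus strand: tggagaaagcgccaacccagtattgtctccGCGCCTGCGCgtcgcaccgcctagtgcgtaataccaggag
Mrpl45, chr11:97315566-97315635, plus strand: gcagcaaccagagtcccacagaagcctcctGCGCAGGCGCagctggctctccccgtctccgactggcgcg
Mrpl43, chr19:45006443-45006484, minus strand: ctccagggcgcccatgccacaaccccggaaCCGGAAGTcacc
Mrps27, chr13:99344707-99344774, plus strand: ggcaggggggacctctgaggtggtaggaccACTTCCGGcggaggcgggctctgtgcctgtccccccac
Genes with the letters spanned most of the range of levels. The 13 genes with the NRF1 letters ranged from 8.50 to 67.6 TPM (a length-scaled transcript level that sums to the same total in every library) with a median of 19.7. The 12 with the ETS letters ranged from 10.5 to 49.9, with a median of 28.7, and the 8 with the YY1 letters from 10.5 to 35.7, with a median of 21.5. Among genes with a promoter entry, the 31 with any of the 3 patterns had a median of 25.7 TPM and the 38 without had 22.5.

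All 78 genes were detected, defined as reaching 1 TPM in each library, against 60.2% of nuclear protein-coding genes. Their median level was 23.5 ± 0.247 TPM (mean ± SD of the medians of 2 libraries, 23.3 and 23.6), and 65 of the 78 lay between 10 and 50 TPM in both libraries. Among detected nuclear protein-coding genes, whose median was 15.3 TPM, this median lay at percentile 64.9. Together the genes took 0.127% ± 0.00292 of the counts on mouse genes (n = 2). Short structural and mitochondrial RNAs take a large part of the TPM scale, and nuclear protein-coding genes held 45.1% ± 0.960 of the mouse TPM. On a scale of nuclear protein-coding genes alone the median was 52.5.

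The levels were close to each other. The 90th percentile of the levels was 3.52 times the 10th percentile. The SD of log2(TPM + 1) over the genes was 0.736. Cytosolic ribosomal proteins, which build the ribosomes that translate nuclear messages, had a median of 217 ± 2.82 TPM over 83 genes, a corresponding factor of 5.31 and an SD of 1.74. Nuclear subunits of the respiratory chain and ATP synthase had a median of 102.6 ± 1.93 TPM over 81 genes and an SD of 2.04. Both of these lists hold genes that were not detected here, 3 of the cytosolic and 4 of the respiratory genes, which widen their SD. Other lists of mitochondrial translation had an SD nearer to that of the members. It was 0.835 for 5 ribosomal proteins with other symbols, with a factor of 2.86, and 0.890 for 11 translation factors. It was 1.02 for 19 aminoacyl-tRNA synthetases and 1.09 for 20 assembly and RNA factors. Nuclear protein-coding genes within the members' range of counts had 1.07, with a factor of 8.89. By that factor the order of the lists differed. It was 5.62 for translation factors, 6.63 for assembly and RNA factors and 7.36 for synthetases, all above the 5.31 of cytosolic ribosomal proteins. The respiratory list, with its undetected genes, had 58.4.

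**Figure D1:**
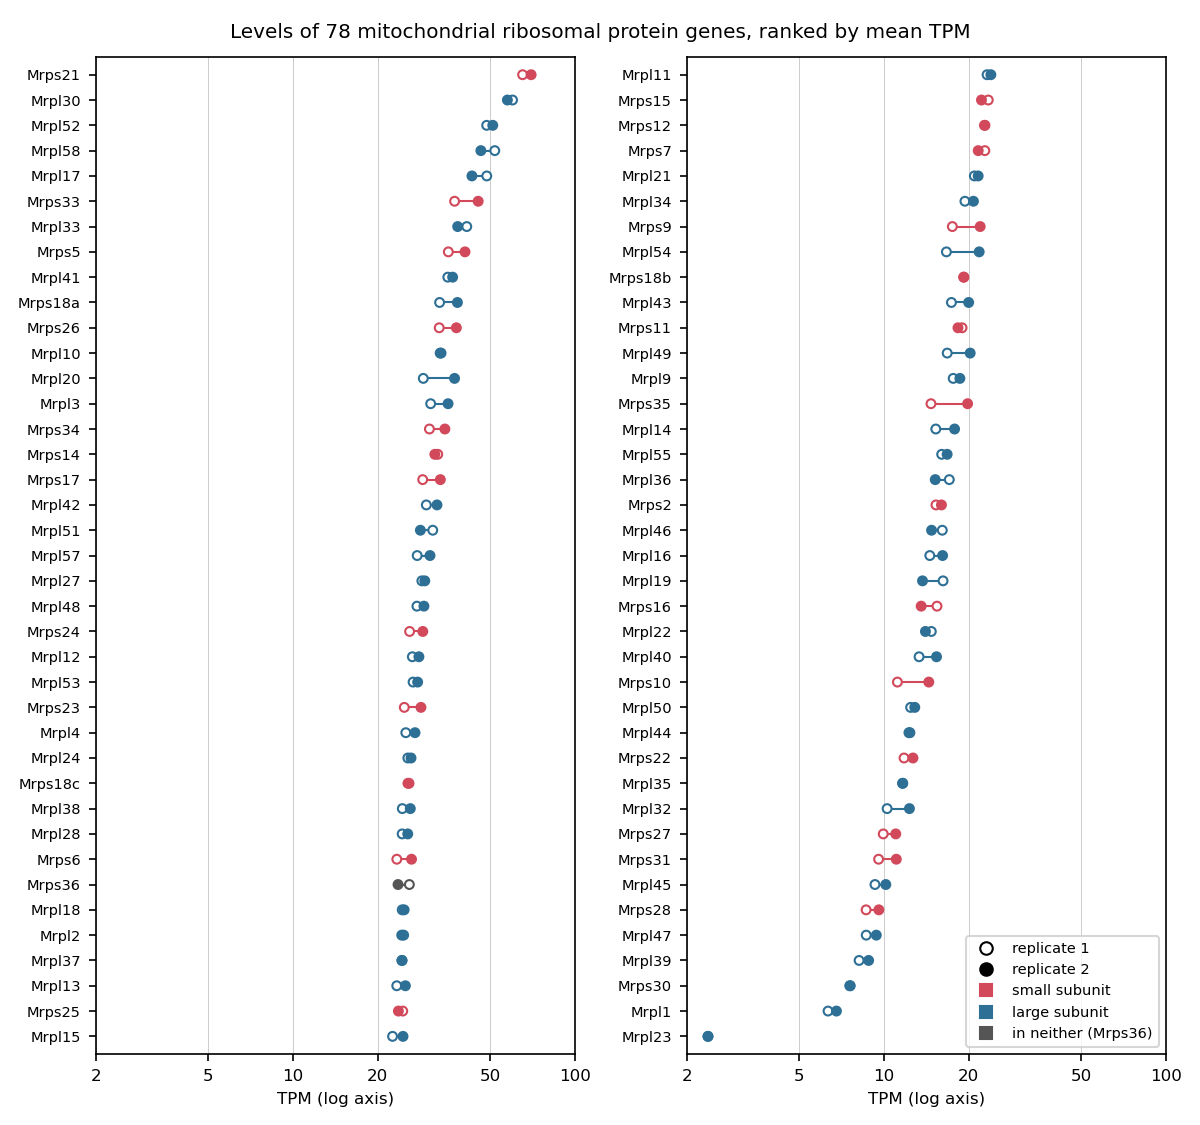
TPM (log axis) of the 78 genes in replicate 1 (open) and replicate 2 (filled), ranked by the mean and coloured by subunit. Most genes lie between 10 and 50 TPM, with Mrps21 at the top and Mrpl23 alone at the bottom at 2.38 TPM.

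Both subunits were at like levels. The 26 small-subunit genes had medians of 23.1 and 22.5 TPM in replicates 1 and 2, and the 51 large-subunit genes 23.2 and 24.3. The ratio of large to small was 1.01 and 1.08, or 1.04 ± 0.0554 (n = 2). Counting protein-coding transcripts alone, the ratio was 1.34. Proteins with a bacterial homologue (46 genes) had a median of 23.2 ± 0.226 TPM, and the 31 classed as mitochondria-specific 24.0 ± 0.509. The second class holds Mrps18a and Mrps18b, which are related to a bacterial protein. The 2 ribosomal RNAs are each present once per ribosome. They gave mt-Rnr2 to mt-Rnr1 at a TPM ratio of 1.31 ± 0.0114 in these libraries, which were ribosomal-RNA-reduced, per the labels. Their mean levels were 43269 and 32980 TPM. A second deposited quantification, in the layout of kallisto and described below, set them further apart at 40947 and 25494.

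Among small-subunit genes, Mrps21, homologue of bacterial S21, was the highest of all 78 at 65.3 and 70.0 TPM. It lies on chromosome 3 at 95862634 to 95871519, minus strand. Its libraries did not overlap with those of any other member. Mrps33, a mitochondria-specific protein, followed at 37.5 and 45.4 TPM, and Mrps5, homologue of the S5 protein that acts in decoding accuracy, at 35.6 and 40.8. The next was Mrps26 at 33.1 and 38.0 TPM. Mrps12, homologue of the decoding-centre protein S12, lay close to the median at 22.8 and 22.7 TPM.

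At the lower end of the small subunit stood Mrps28, with 8.65 and 9.60 TPM. Mrps31 had 9.58 and 11.1 TPM, and Mrps27, a pentatricopeptide-repeat protein that binds RNA, 9.95 and 11.0. Mrps31 overlapped with both of the others, while all values of Mrps27 were above those of Mrps28. The highest small-subunit gene thus stood at 67.6 ± 3.32 TPM and the lowest at 9.13 ± 0.672.

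In the large subunit, Mrpl30 led at 60.1 and 57.7 TPM (chromosome 1, 37890477 to 37898535, plus strand). Mrpl52 had 48.7 and 51.2 TPM, and Mrpl17 48.7 and 43.2. Mrpl58, a peptidyl-tRNA hydrolase built into the ribosome that releases stalled chains, had 52.0 and 46.4. The last 3 of these overlapped between libraries, so that their order is not fixed by the data. Mrpl33 followed at 41.4 and 38.4 TPM and Mrpl41 at 35.4 and 36.9.

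The proteins of the stalk stood in the upper or middle part of the order. Mrpl10, its base, had 33.3 and 33.6 TPM. Mrpl12, which Mrpl10 anchors and which is also known to bind the mitochondrial RNA polymerase, had 26.5 and 28.0. Mrpl11, beside them in the ribosome, had 23.2 and 24.0 TPM. The 3 genes did not overlap with one another between libraries.

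Proteins near the exit of the peptide tunnel ranged widely. Mrpl17, given above, was among the highest members. Mrpl45, which ties the ribosome to the inner membrane, had 9.30 and 10.2 TPM. Mrpl47, homologue of L29, had 8.66 and 9.40, and Mrpl39 8.17 and 8.83. Mrpl44, which has the fold of a ribonuclease, had 12.4 and 12.3 TPM. Of other proteins of the exit, Mrpl24 lay above the median at 25.6 and 26.3 TPM and Mrpl22 below it at 14.7 and 14.0. Mrpl1, homologue of the L1 stalk protein at the site where transfer RNA leaves, was the second lowest gene at 6.34 and 6.79 TPM. Mrpl32, whose product is matured by a mitochondrial protease before assembly, had 10.3 and 12.3.

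Mrps30, a large-subunit protein despite its symbol, was near the bottom at 7.57 and 7.60 TPM. Mrpl37, to which it is related, stood at 24.4 and 24.4 TPM. The 3 paralogues that descend from bacterial S18 differed. Mrps18a, in the large subunit, had 33.2 and 38.3 TPM. Mrps18c had 25.8 and 25.6, and Mrps18b 19.2 and 19.2, both in the small subunit. The libraries of these 3 did not overlap. Mrps36 of the oxoglutarate dehydrogenase complex stood at 25.9 and 23.6 TPM, within the range of the ribosomal genes around it.

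Most neighbours in the order could not be told apart. Of the 77 neighbouring pairs, 9 had libraries that did not overlap, and 5 of these lay among the 3 highest or the 4 lowest genes. The coefficient of variation over the 2 libraries had a median of 5.27% over the genes and was highest for Mrps35 at 21%. It was under 5% in 37 genes and over 15% in 5. Mean counts per gene ran from 91.3 for Mrpl23 to 1183 for Mrpl3, with a median of 456.

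In the wider machinery of mitochondrial translation, translation factors, assembly and RNA factors and synthetases had lower medians than the members, with some genes of each list above. Ribosomal proteins without an Mrp symbol stood higher than the members, with medians of 30.9 and 30.1 TPM in the 2 libraries over 5 genes. Dap3, which binds GTP in the small subunit, led them at 46.4 and 44.3 TPM, and Gadd45gip1 was lowest at 9.74 and 10.4. Translation factors had a median of 9.47 ± 0.311 TPM over 11 genes. They were led by the elongation factor Tufm with 32.7 and 37.0 TPM, followed by Gfm1, the translocase, with 23.7 and 22.2. The initiation factor Mtif2 had 14.5 and 15.1.

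Assembly and RNA factors had a median of 8.84 ± 0.177 TPM over 20 genes. The RNA helicase Dhx30 was highest at 65.8 and 68.8 TPM. The partners Slirp and Lrpprc, which stabilise mitochondrial messages, had 39.2 and 48.1, and 25.9 and 28.2. In the second deposited quantification, Slirp (mean 58.3 TPM) stood above Dhx30 (56.5). Aminoacyl-tRNA synthetases, which load transfer RNAs, had a median of 11.7 ± 0.219 over 19 genes. Gars and Kars, at 50.5 and 55.7, and 31.7 and 34.1 TPM, encode both the cytosolic and the mitochondrial enzyme. Lars2 had a mean of 25.6 TPM here but 70.7 in the second quantification, where Gars had 47.7. All genes of these lists were detected. They were chosen by hand, and no test of their difference from the members was made.

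**Figure D2:**
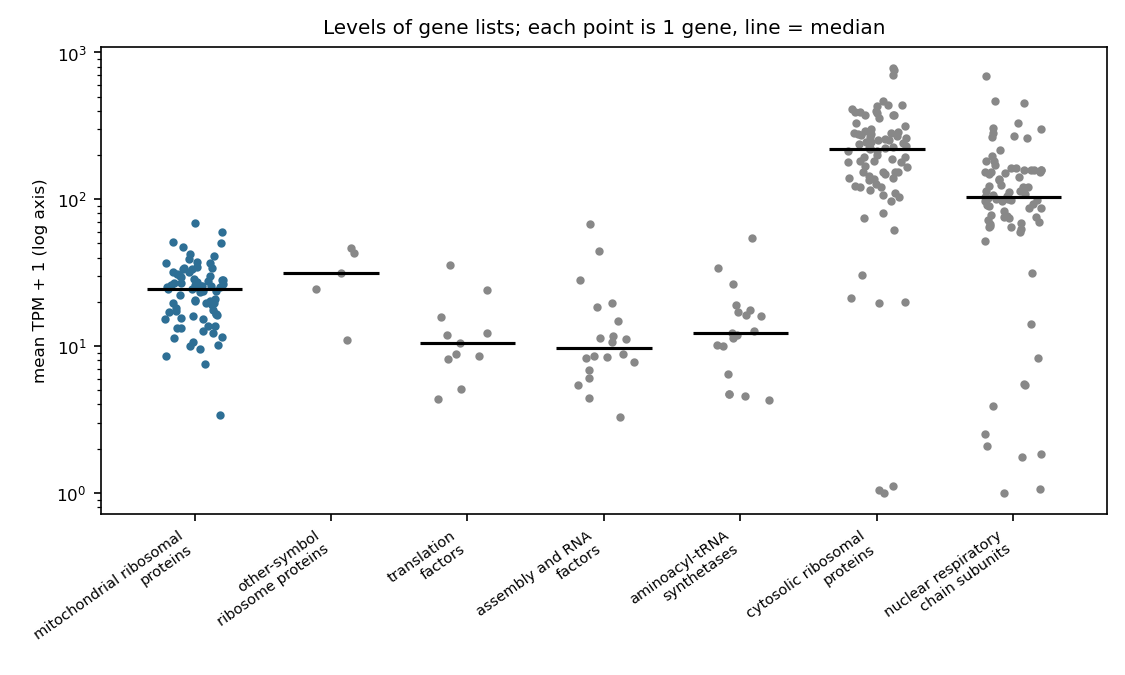
Mean TPM + 1 (log axis) of each gene in the mitochondrial ribosomal protein set and 6 other lists, with the median as a line. The members have a median of 23.5 TPM, below the cytosolic ribosomal proteins at 217 and the respiratory chain subunits at 102.6.

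The libraries were compared as a log2 ratio of replicate 2 over replicate 1, on counts scaled by TMM, a normalisation that centres most genes. With 1 library on each side, this ratio has no replicate check. None of the 78 members differed by 2-fold, against 2.66% of the 18906 genes whose mean count reached 10. None differed by 1.5-fold, against 8.42% of those genes and 0.776% of nuclear protein-coding genes with at least 100 counts. At such counts few genes of any kind passed.

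The highest ratio at 100 counts or more was 0.38 for Mrpl54, which had 164 and 245 counts and 16.7 and 21.8 TPM. Mrpl20 had 0.35, with 29.0 and 37.5 TPM. Mrps9 had 0.27, with 17.5 and 22.0 TPM. The lowest was -0.19 for Mrps36, with 25.9 and 23.6 TPM, then -0.17 for Mrps16, with 15.4 and 13.6 TPM, and -0.15 for Mrps15, with 23.5 and 22.2 TPM. Of the 78 ratios, 10 lay over 2 standard errors of counting from 0 (12.8%). This was so for 20.4% of nuclear protein-coding genes within the same range of counts and for 30.6% of those with 100 counts or more.

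Small as they were, the ratios leaned one way. In replicate 2, 61 of the 78 genes were higher (78.2%), against 52.9% of all genes whose mean count reached 10. Among nuclear protein-coding genes the share was 59.9% of those with 100 counts or more and 51.8% of those within the members' range of counts. The median ratio was 0.08, against 0.01 over all genes. The lean was found in both subunits, with 22 of 26 small-subunit and 39 of 51 large-subunit genes higher. The number of higher genes depended on the scaling, from 54 by library size alone to 71 by spike-ins, and the share of all genes moved with it, from 46.6% to 64.3%. The nuclear respiratory chain subunits also leaned this way, with 71 of 77 higher and a median of 0.10. So did the cytosolic ribosomal proteins, with 62 of 80 higher and a median of 0.06. On the TMM scaling, genes encoded by the mitochondrial genome leaned the other way, with 10 of 13 protein genes and both ribosomal RNAs lower in replicate 2. The median over the 13 was only -0.04, with ratios from -0.18 to 0.50. Spike-in scaling raised the median of the members from 0.08 to 0.14, so the direction for these 13 may depend on the scaling too. Their number was not counted under the other scalings.

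**Figure D3:**
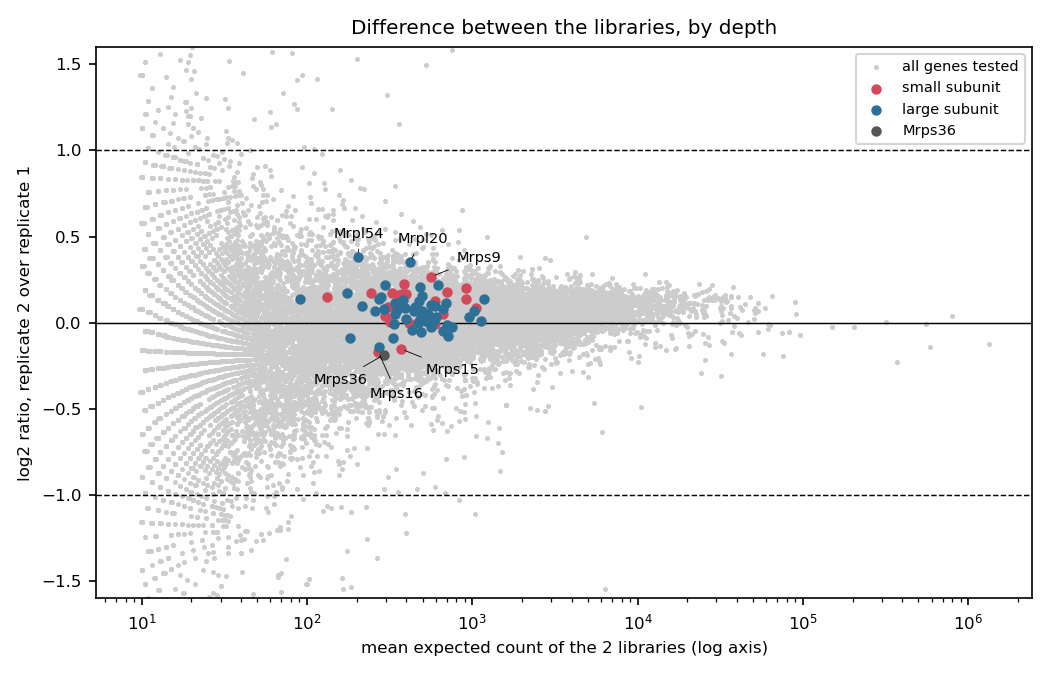
Log2 ratio of replicate 2 over replicate 1 against mean expected count (log axis) for the members, coloured by subunit, over all 18906 genes in grey, with dashed lines at 2-fold. The members lie between -0.19 and 0.38, and 127 genes beyond 1.6 either way are not drawn.

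Several cell-type marker lists differed between the same libraries. All 5 neuronal markers were higher in replicate 2 (median log2 ratio 0.13), with a summed level of 1855 TPM in replicate 1 and 2061 in replicate 2. All 4 oligodendrocyte markers were lower (-0.30; 1725 and 1384 TPM), as were all 4 astrocyte markers on the scaled counts (-0.07), with a summed level of 1037 and 1049 TPM. The 5 choroid plexus markers were all lower (-1.54), at 445.8 and 154.9 TPM, with the transthyretin gene Ttr at 426 and 146. The 3 ependymal markers (-1.32) and both haemoglobin genes (-0.53) were lower too, and no marker was at 0. Microglial markers were split, with 2 of 4 higher and ratios from -0.16 to 0.24, and so were endothelial markers, with 2 of 3 higher and a median of 0.02. The part of these shifts in the lean of the members was not tested, and fewer cells of a type cannot be told apart from less RNA per cell.

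The lowest member, Mrpl23, depends on how reads are assigned. Its product, homologue of L23, sits at the tunnel exit. The gene lies on chromosome 7 at 142532686 to 142540747, plus strand, and a processed pseudogene, Mrpl23-ps1, lies on chromosome 2 at 74591330 to 74591909, minus strand. A processed pseudogene is a copy of a spliced message inserted elsewhere in the genome. In the reference transcripts, Mrpl23-201 and the pseudogene were identical over 540 bases with 0 mismatches, which covers the whole coding sequence of 438 bases. The first 90 coding bases are shown for both, with capitals for identical bases, since a read that lies within the shared bases fits both loci. The first 150 bases of Mrpl23-201 and the last 39 of the 580 bases of the pseudogene lie outside the shared stretch.
Mrpl23-201, bases 167 to 256: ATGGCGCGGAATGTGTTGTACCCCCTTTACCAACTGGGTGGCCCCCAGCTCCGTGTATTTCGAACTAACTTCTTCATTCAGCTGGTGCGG
Mrpl23-ps1-201, bases 18 to 107: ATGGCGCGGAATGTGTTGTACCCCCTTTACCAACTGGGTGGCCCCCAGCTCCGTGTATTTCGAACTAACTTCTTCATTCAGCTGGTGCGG
The gene table, in the column layout of the program RSEM, put 2.38 and 2.38 TPM on Mrpl23 and 29.7 and 33.1 on the pseudogene. The gene received 22.3% ± 0.0725 of the counts of the pair (n = 2). The deposited posterior SD of the count, a measure of uncertain assignment, was 20.4 on 80.7 counts and 18.7 on 101.9. The transcript table in the layout of kallisto put 31.0 and 36.0 TPM on Mrpl23 and 0 on the pseudogene in both libraries. The sum over both loci was 32.1 and 35.5 TPM in the gene table, close to the kallisto-layout values. With the sum in its place, Mrpl23 would stand among the upper members rather than at the bottom, and the SD of log2(TPM + 1) over the 78 genes would be 0.671. Which locus is transcribed was not tested.

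Other members with processed pseudogenes differed less between the tables. Mrpl48 received 94.2% ± 1.09 of the summed counts of Mrpl48 and Mrpl48-ps, which differs from Mrpl48-208 at 12 of 636 aligned bases. That sum includes reads from parts of Mrpl48 outside the aligned bases, so it is not a share of reads that fit both loci. Mrpl48 stood at 27.55 and 29.17 TPM in the gene table and at 33.4 and 29.0 in the kallisto layout. The pseudogene stood at 4.72 and 6.57 TPM in the gene table and at 1.34 and 3.29 in the kallisto layout. Of the 3 pseudogenes of Mrps36, Mrps36-ps1 and Mrps36-ps3 were listed at 0 and Mrps36-ps2 at 0.330 and 0.620 TPM in the gene table. In the 78 genes, the posterior SD was 0 in both libraries for 54 and over 1% of the count for 4, which were Mrpl23, Mrps33, Mrpl53 and Mrps34.

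For the other members both kinds of table gave like levels. After centring on nuclear protein-coding genes, 2 of 78 differed by over 1.5-fold, against 3.66% of detected nuclear protein-coding genes. Mrpl23 was 14.1 times higher in the kallisto layout before centring and 14.8 times after. Mrps12 was 1.51 times higher before and 1.59 times after, with 34.9 and 34.0 TPM there against 22.8 and 22.7. The next ratios of the kallisto layout to the gene table, before centring, were 1.36 for Mrpl19, 1.33 for Mrps33 and 1.29 for Mrps15. The lowest were 0.768 for Mrpl17, 0.769 for Mrps23, 0.824 for Mrpl34, 0.828 for Mrpl58 and 0.833 for both Mrpl16 and Mrpl38.

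**Figure D4:**
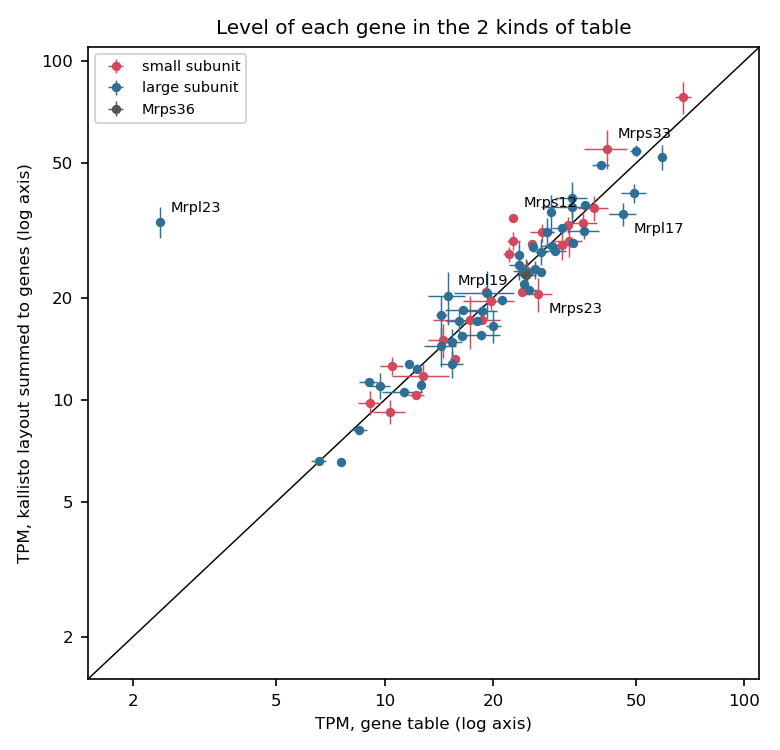
Level of each member in the gene table and in the kallisto layout summed to genes (TPM, log axes, bars are the SD over 2 libraries), with a line of equality. Mrpl23 lies far above the line at 2.38 against 33.5 TPM, and the other members lie along it.

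The tables also split each gene into annotated transcripts. The members have 343 transcripts, of which 170 are annotated as protein-coding, 88 as retained intron, 61 as processed transcript (noncoding) and 24 as targets of nonsense-mediated decay, the pathway that removes messages with an early stop. Protein-coding transcripts took 73.2% ± 0.966 of the members' summed TPM (n = 2), retained introns 13.8% ± 0.875, processed transcripts 7.42% ± 0.266 and decay targets 5.61% ± 0.174. The kallisto layout gave 70.8% ± 1.43 to protein-coding transcripts and 12.6% ± 0.797 to processed transcripts.

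Of the 78 genes, 46 (59.0%) had under 90% of their TPM on protein-coding transcripts, against 53.7% of detected nuclear protein-coding genes, a share near the background. Under 50% there were 18 (23.1%), against 10.3% of those genes. The kallisto layout placed 17 under 50%, 15 of them the same genes. The transcript with the most TPM was noncoding in 16 genes, in 5 a retained intron, in 6 a processed transcript and in 5 a decay target, and it was noncoding in both tables in 14 genes. The leading transcript was not classed for other genes, so these counts have no background share.

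Mrps26 had the lowest share, with 8.26% and 8.23% on protein-coding transcripts. Its leading transcript was Mrps26-201, a retained-intron form of 1057 bases at 32.6 TPM that holds all of the coding bases and 2 of the 3 junctions between them. The coding form Mrps26-202 is 4278 bases long and stood at 2.93 TPM. Mrps16 had 10.4% and 11.0%, led by the processed transcript Mrps16-202 of 801 bases, with 97.5% of the coding bases. Mrps14, with 11.1% and 16.2%, was led by the decay target Mrps14-201 of 674 bases, which holds all coding bases and 1 of 2 junctions. Mrpl57, with 14.1% and 12.9%, was led by Mrpl57-202 of 519 bases, which also holds all coding bases of a gene whose coding sequence has no junction. Mrps24 had 14.7% and 17.9%, led by Mrps24-201 of 700 bases, again with all coding bases. The other 5 of the 10 lowest shares belonged to Mrpl15, Mrps25, Mrpl32, Mrpl51 and Mrps11, between 11.9% and 23.8% in the mean.

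In 15 of the 18 the main coding transcript was longer than the leading noncoding one, the exceptions being Mrpl23, Mrps35 and Mrps5. The median lengths were 2725 and 709 bases. The share that chose these genes divides by length and so favours long coding forms, and no other genes were compared. By count, the share on coding transcripts was larger in the median. Its median over the 18 genes was 20.04% by TPM and 45.3% by count, and 10 of the 18 were under 50% by count. In Mrps25 it was 12.1% by TPM and 62.6% by count, and in Mrpl19 30.8% and 83.9%. In Mrps16 it stayed low at 29.6% by count. In 8 of the 18 the leading noncoding transcript held over 90% of the coding bases. Short reads from those bases fit both forms, so the split rests on the remaining bases and on the model. How much of this RNA is translated was not measured.

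**Figure D5:**
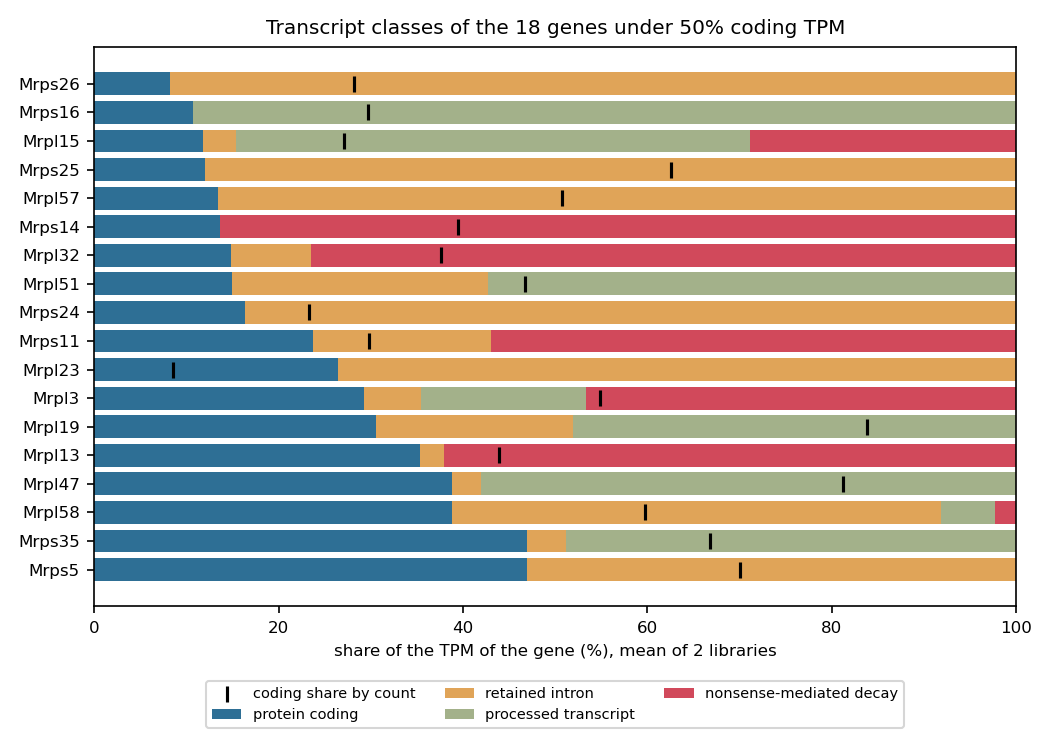
Share of the TPM of each gene by annotated transcript class (bars, mean of 2 libraries, %) for the 18 members under 50% protein-coding TPM, with a tick for the protein-coding share by count. The tick lies to the right of the coding bar in every gene shown except Mrpl23.

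A single gene could change class between the tables. Mrpl33 had 81.4% and 90.4% of its TPM on coding transcripts in the gene-table layout. There the coding Mrpl33-201 stood at 33.7 and 34.7 TPM and the noncoding Mrpl33-211, 367 bases long, at 2.34 and 0. In the kallisto layout Mrpl33-201 stood at 4.63 and 6.67 TPM and Mrpl33-211 at 28.9 and 27.6. The sum over the gene differed far less, with a ratio of 1.24 between the tables.

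The members also share features of genome position. They lie on 17 chromosomes, with 11 on chromosome 11, 8 on chromosome 17 and 7 on chromosome 6. They are short genes, with a median length of 7900 bases against 25659 for detected nuclear protein-coding genes. Their coding sequences are short too, with a median of 582 bases against 1413, and range from 195 bases in Mrpl33 to 1326 in Mrps30. In 33 of the 78 (42.3%) another protein-coding gene starts within 1000 bases on the opposite strand, against 15.1% of detected and 10.8% of all nuclear protein-coding genes. In 21 of the 33 the starts were within 200 bases, a distance that was not counted for other genes. Another annotated gene overlaps 36 members on the opposite strand and 13 on the same strand. Overlaps were not counted for other genes, so whether they are more common among the members is not known. The library kit was directional, per the labels, but whether counting used the strand is not stated, so reads of overlapping genes may have been shared.

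Some of these partners act in mitochondria. Mrpl36 (16.1 ± 1.31 TPM) starts 29 bases from Ndufs6, a complex I subunit at 77.3 ± 3.25 TPM. Mrpl47 (9.03 ± 0.523) lies beside Ndufb5, another such subunit at 82.5 ± 9.16. Mrps12 (22.8 ± 0.0636) lies beside Sars2, the mitochondrial seryl-tRNA synthetase at 5.45 ± 0.332. Mrpl43 (18.7 ± 1.85) lies beside Twnk at 5.53 ± 0.445. Mrpl46 and Mrps11 are each other's partner, with 15.4 ± 0.955 and 18.6 ± 0.438 TPM. Others face genes of other functions, such as Mrpl49 beside the ribosomal protein gene Fau at 407.8 ± 0.00707 TPM and Mrpl27 beside the nuclease gene Eme1 at 0.0700 ± 0.0990. Levels in a pair were near each other in some, such as Mrps27 at 10.5 and Ptcd2 at 11.2 TPM, and far apart in others. The partners ranged from 0.0700 to 407.8 TPM, 27 of 33 were detected, and 13 were higher than the member.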

How the data were processed

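Total RNA libraries of 2 samples were compared as 1 group. The authors deposited, per the file headers, expected counts, TPM, posterior SDs and bounds of TPM (used as a score) for genes and transcripts in the layout of RSEM. A second deposited table holds estimated counts and TPM by transcript, laid out as kallisto writes them. The build was mm10 and the annotation GENCODE M21, per the labels and headers. Program names and versions were not given in the sources used here. Every identifier of the 55536 mouse genes matched GENCODE M21. Rows for 96 ERCC spike-ins and 26248 rows without a gene name stayed out.

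A gene without counts could still hold 3, which is 0.108 CPM in replicate 1 and 0.0933 in replicate 2. Reads carry no molecular identifiers, so this covers counting error only. For ratios, expected counts were rounded and scaled by TMM in edgeR 4.0.16 (R 4.3.3) with a prior count of 2 and a mean count of at least 10. On counts simulated with counting noise alone, 200 genes of at least 100 counts were changed by a log2 ratio of 1.5. All of them (100%) passed 2-fold, as did 0% of 12897 unchanged genes. The simulated counts held no spread between samples, so this checks the calculation and not how reliable a 2-fold difference is in these libraries. The kallisto layout was summed to genes and centred on nuclear protein-coding genes. Tables were made with Python 3.11.15, numpy 2.4.6 and pandas 2.3.3, figures with matplotlib 3.10.9, and alternatives with DESeq2 1.42.0. Groups come from the labels, which give no batch.

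The members and gene lists were chosen with earlier results of these data known. Named in full are the 10 highest and 10 lowest members, the 3 highest and 3 lowest ratios at 100 counts or more, the 5 largest gaps between tables each way, the 10 lowest coding shares, the Mrps18 paralogues, members with roles beyond the ribosome and up to 4 leading genes of other lists. Stalk, tunnel-exit and partner genes, Mrpl33 and Mrpl48 were chosen after their values were seen. Mtres1, a translation factor, was not found by that symbol. Complex II is not in the respiratory list.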

Additional observations from a re-analysis of the deposited data

How the results depend on the processing

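With 2 libraries and no control, the data bear on levels and not on effects, and CAST sequence was not used. Of 52 alternatives, 43 left a level within 1 SD of the libraries, a count within 1.5 times, or the median ratio within the median standard error of counting of 1 member. Some of the 43 could not have come out otherwise. With 2 libraries, leaving out either shifts a mean by less than their SD. All members were detected in each library, so a lower threshold or a single library had to give the same count. All members also passed the main count filter, so applying or removing it left their values as they were. All 7 alternatives for the median ratio between replicates left it positive, from 0.05 to 0.14. In all 8 alternatives for the fold no member passed it. The number of members higher in replicate 2 was 54 to 71 over 7 settings chosen after seeing the data, and 55 were so in TPM. Scaled to nuclear protein-coding genes the median level was 52.5, and in the kallisto layout 22.8 TPM. It was 23.3 to 23.6 when either library was left out. The ratio of large to small subunit was 1.34 on protein-coding transcripts alone and 1.01 to 1.08 with either library left out. The SD of log2 levels was 0.784 with a pseudocount of 0.1, 0.789 with 0.01, 0.694 in the kallisto layout and, chosen after seeing the data, 0.671 with Mrpl23 summed with its pseudogene. At 2-fold, 1 member differed between the tables. Under 75% coding TPM there were 27 members, and by counts in place of TPM 41 were under 90%, an alternative also chosen after seeing the data. No paired analysis was possible because there is 1 group.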
